A study of Drosophila melanogaster with 4 samples.

Results

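The enriched clusters described here lie on the X chromosome of a Drosophila melanogaster cell line, CME-W1-Cl.8+ (Clone 8), and mark RNA polymerase II phosphorylated at serine 5. A member was an X region of the combined cluster list of the series with a score above 0 that overlapped, by at least 1 bp, an enriched region of replicate 1 and one of replicate 2. This rule gave 798 of the 1064 enriched X regions of the combined list. Over all sequences, 4239 of its 5309 enriched regions were found in both replicates, the 798 among them. The study carried out chromatin immunoprecipitation and sequencing (ChIP-seq) on this line and holds 2 ChIP libraries, for which the rabbit polyclonal ab5131 was the antibody, and 2 libraries of input DNA. The labels trace the line to the wing (dorsal mesothoracic) disc of larvae in the third instar and call it male, and they name no genotype beyond the line and no treatment. A line is a single cultured population, and the labels do not state that the replicates came from different cultures, so differences between them may be technical.

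RNA polymerase II carries a tail of heptad repeats on its largest subunit. Serine 5 of these repeats is phosphorylated by the kinase of the general factor TFIIH around the start of transcription, and in flies the mark is strong where the polymerase pauses just downstream of promoters. In male flies the X is present in a single copy, and the MSL complex, which acetylates histone H4 at lysine 16 over active X genes, raises their transcription. The X sequence is numbered from the tip of the chromosome towards its centromere. All positions are on FlyBase release 5, counted from 1. Genes are not named and no sequence is printed, because the gene table used here follows release 6 and positions were not converted. The YHet sequence, a piece of the Y, held 1 cluster in each replicate list and 2 in the combined list. The lists hold no value that gives the number of X copies.

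Replicate 1 listed 1020 enriched regions on X and replicate 2 listed 935. Of these, 912 and 895 overlapped one of the 798 members. The members covered 4.18 Mb, or 18.6% of the 22.4 Mb X sequence, and the matching regions covered 16.9% in replicate 1 and 16.5% in replicate 2. The lists give no read counts and library depth is unknown; a deeper library can list more and wider regions at the same occupancy. Each region carries a score that the authors gave it. The sources used here do not give its scale, and comparisons of scores stay within a list. Input had no list of its own here and groups could not be tested against each other, so all comparisons are descriptions, set beside the difference between the replicates.

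The rule had a score limit and an overlap limit. Just inside the score limit, the lowest member, from 9198398 to 9200238, scored 0.16, and the next, from 13886018 to 13887946, scored 0.20. Just outside it lay the depleted region from 17575968 to 17577694, with a score of -0.033. The smallest overlap with a replicate region was 1306 bp, for the 1.54 kb member from 13027830 to 13029368, so none rested on an overlap of a few bases. The narrowest X region of each replicate list was also 1.306 kb wide. As a share of the member the overlap could be small, and 774 of the 798 members were covered to at least 50% in each replicate. The nearest miss, from 17740934 to 17743122, overlapped replicate 1 and lay 112 bp from a region of replicate 2.

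Most X clusters were a few kilobases wide, and many were close to the same width. The median member was 3.54 kb wide, with quartiles of 2.36 and 5.97 kb. In the replicates the matching regions had a median of 2.80 kb in replicate 1 and 2.78 kb in replicate 2, a mean of 2.79 ± 0.014 kb (SD, n = 2). The clusters of the combined list were thus wider than the regions they matched, and 134 of them were more than 1 region in at least 1 replicate. The width class from 2 to 2.5 kb was the most crowded for its size and held 205 members (25.7%), against 33 (4.14%) below 2 kb. In the replicates this class held 29.2% and 30.5% of the matching regions. At the other end, 88 members (11.0%) were at least 10 kb wide, and these held 34.0% of the covered bases.

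**Figure D1:**
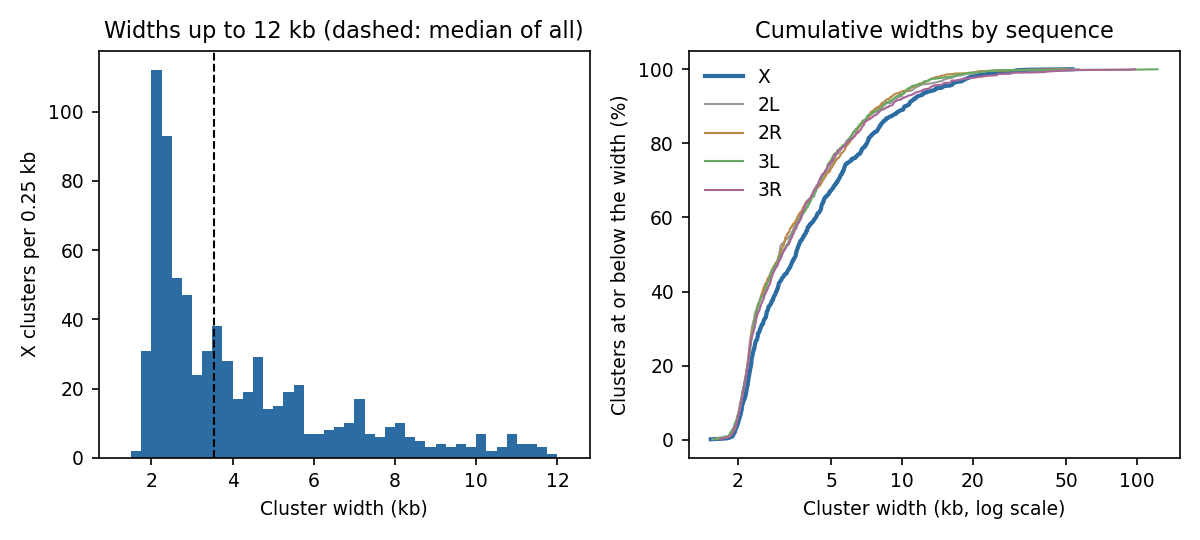
Widths of X clusters found in both replicates. Left, number of the 798 X clusters per 0.25 kb of width, up to 12 kb, with the median of 3.54 kb dashed. Right, share of clusters at or below each width (kb, log scale) on X (thick line) and on the 4 large autosome arms; the X curve lies to the right of the others between about 2.5 and 10 kb.

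Narrow clusters spanned almost the whole range of scores, while high scores were more frequent among wide ones. Members of 2 to 2.5 kb scored from 0.32 to 3.38, whereas those below 2 kb scored no higher than 0.90. The 552 members with a score of at least 1 were at least 2.05 kb wide, and the 128 with a score of at least 2 were at least 2.22 kb wide. The median score was 1.00 for members under 3 kb, 1.44 for those of 3 to 10 kb and 1.65 for those of at least 10 kb. The 79 highest scoring members included 23 of the 337 under 3 kb, 43 of the 373 of 3 to 10 kb and 13 of the 88 of at least 10 kb. The highest score was 3.38 under 3 kb, 3.40 at 3 to 10 kb and 2.87 at 10 kb or more, classes of unequal size. Across the 798 members, which are not independent replicates, Spearman's rho of width and score was 0.46. It was 0.51 within members under 3 kb, 0.20 from 3 to 10 kb and 0.18 at 10 kb or more. Both values come from the same reads, and a region with more reads can pass a caller's limit over a longer stretch.

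**Figure D2:**
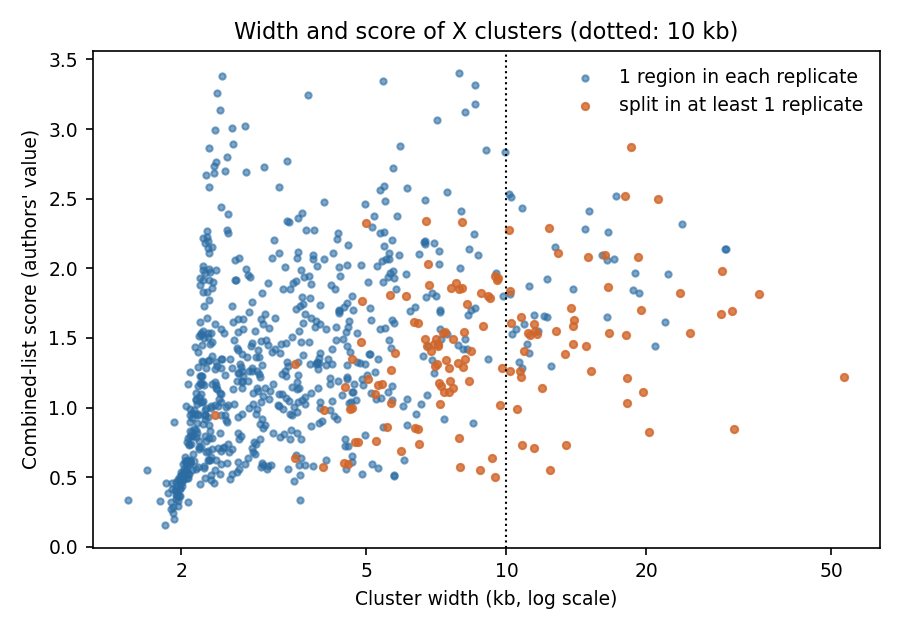
Combined-list score (the authors' value) against width (kb, log scale) for the 798 X clusters. Blue points were a single region in each replicate and orange points were split in at least 1 replicate; a column of clusters between 2 and 2.5 kb wide reaches from 0.32 to 3.38, and most split clusters are wider than 5 kb.

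The strongest X sites ranged from narrow clusters of 2.29 kb and more to a domain of 18.6 kb. Of the 20 members with the highest combined-list scores, 9 were under 3 kb wide, 10 were at least 5 kb and 1 was between these, while among all 798 members 337 were under 3 kb. Among the 50 highest, 18 were under 3 kb and 25 at least 5 kb, and among the 100 highest, 28 and 52. Of all 798 members, 173 were 5 to 10 kb wide and 88 were at least 10 kb. Of the 20, 1 was at least 10 kb wide, as were 8 of the 50 highest and 17 of the 100 highest. The median width of the 20 was 4.58 kb. The replicates ranked these sites high but not in the same order. Of the 20, 16 were among the 20 highest X regions of replicate 1 and 16 among those of replicate 2, 12 of them among both, and none ranked lower than 34 in either. Among the 50 highest members, 36 (72%) were among the 50 highest of both replicates. These ranks are not independent of the combined list, which shares most of its regions with the replicates.

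The top site, from 5320198 to 5328096, was 7.90 kb wide and scored 3.40 in the combined list, 3.54 in replicate 1 and 3.65 in replicate 2. It was the second highest X region of replicate 1 and the highest of replicate 2. The replicates listed it as 6.62 and 6.67 kb, and the next member downstream was 82.0 kb away. This site was thus a strong cluster at the edge of a long stretch without members.

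The second site, from 15519216 to 15521664, was the highest of those under 3 kb. It was 2.45 kb wide and scored 3.38, with 3.59 in replicate 1, the highest score on X there, and 3.25 in replicate 2, the ninth. Its width was 2.44 kb in replicate 1 and 2.42 kb in replicate 2, so the replicates placed its edges almost alike. Other narrow sites were equally steady in width. The one from 18398154 to 18400534 was 2.34 kb wide in both replicates and scored 3.20 and 3.30. The one from 15997646 to 16000064 was 2.38 and 2.36 kb wide and scored 3.31 and 3.07. The replicates differed most in rank at the site from 16147184 to 16149922. It ranked 34 with a score of 2.70 in replicate 1 and 6 with a score of 3.34 in replicate 2.

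Sites of at least 5 kb included 3 of the 4 highest. The one from 13222678 to 13228098 was 5.42 kb wide and scored 3.34, with 3.20 in replicate 1 and 3.49 in replicate 2. The one from 14962822 to 14971394 was 8.57 kb wide and scored 3.31, with 3.50 and 3.52 in the replicates. Those starting at 1369928, 13289260 and 6167868 and ending at 1378488, 13297406 and 6174962 were between 7.10 and 8.56 kb wide and scored 3.18, 3.12 and 3.06. The most isolated of the 20 was the 3.74 kb site from 18960258 to 18963994, with a score of 3.24, whose nearest member was 64.8 kb away. Most others had a neighbour close by, and the median distance to the nearest member was 3.00 kb for the 20 sites, against 2.49 kb for all members.

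The other strong sites scored between 2.80 and 3.01. Narrow ones were X:20898062-20900628, X:10212322-10214678, X:11514948-11517534, X:3704578-3706866 and X:13738496-13740996. Wider ones were X:16530364-16536260, X:5805908-5814938 and X:8133744-8143696. The widest of the 20, from 5781272 to 5799834, was 18.6 kb wide and scored 2.87. It was a single region with a score of 3.15 in replicate 1, and in replicate 2 it was 2 regions, the higher of which scored 3.64. It lay 6.07 kb from the strong site that starts at 5805908, the closest pair among the 20, with 1 weaker member between them.

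**Figure D3:**
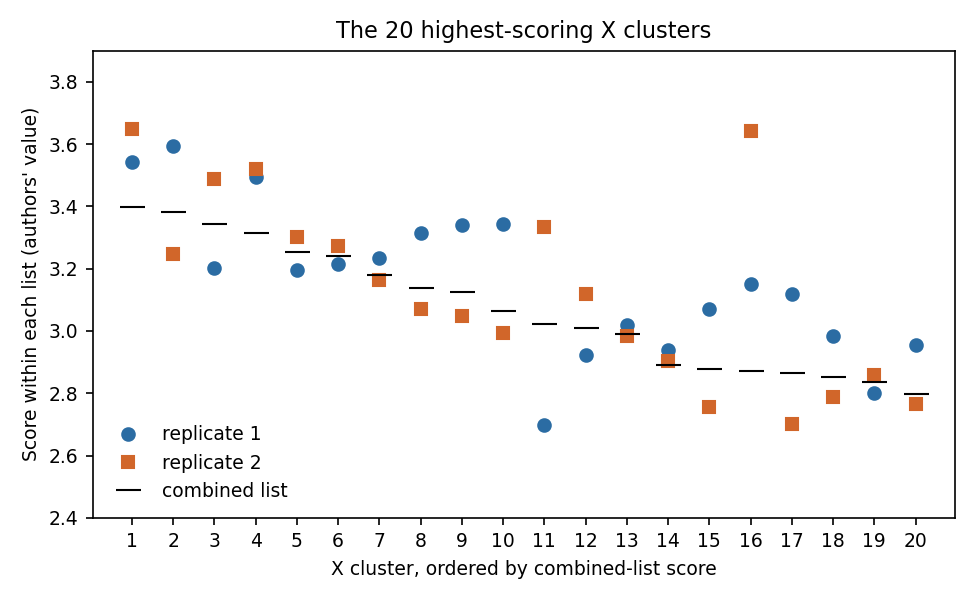
Scores of the 20 highest X clusters (authors' values, within each list), ordered by combined-list score. Circles are replicate 1, squares the highest overlapping region of replicate 2, and bars the combined list. The plotted values of the replicates lie farthest apart at the 11th and the 16th site. Whether the lists share a scale is not known.

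Most of the broadest X domains scored above the median cluster. Of the members, 16 were at least 20 kb wide, with scores from 0.82 to 2.501 and a median of 1.76, against 1.30 for all members. Of the 16, 2 were among the 79 highest members and 3 scored below the median of all members. None was among the 20 highest, a set so small beside 798 members that no difference can be read from it. The widest ran from 17349020 to 17402210, was 53.2 kb wide and scored 1.22. Replicate 1 listed it as 4 regions and replicate 2 as 5, which covered 94.6% and 92.3% of it. The second widest, 34.9 kb from 1954586 to 1989508, scored 1.82 and was 3 regions in each replicate. Both were thus nearly filled in the replicates but broken by short breaks.

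Some broad domains were unbroken in both replicates. The 29.7 kb domain from 9622360 to 9652050 was a single region of 29.4 kb in replicate 1 and of 29.6 kb in replicate 2, and its scores were 2.22 and 2.09. The 29.5 kb domain from 8300108 to 8329560 was a single region of 28.6 and 28.5 kb, with scores of 2.17 and 2.16. The 23.9 kb domain from 1108056 to 1131922 was a single region of 23.8 kb in each, with scores of 2.45 and 2.23. These domains were listed alike by the replicates to within 1 kb. In all, 6 of the 16 were a single region in both replicates.

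Of the 16, 2 domains were nearly filled in replicate 1 but not in replicate 2. The 30.9 kb domain from 7524860 to 7555770 scored 0.85 and was 3 regions covering 91.3% of it in replicate 1, but 5 regions covering 56.6% in replicate 2. The 20.2 kb domain from 12617122 to 12637348 scored 0.82 and was covered to 93.9% in replicate 1 and to 47.1% in replicate 2. These were the lowest scores among the 16, and here the replicates did not give the same extent. Such a mismatch was not confined to the 16. The 13.4 kb domain from 11416582 to 11430028, for example, was covered to 99.8% in replicate 1 and to 43.3% in replicate 2. The remaining domains of the 10 widest were covered to at least 83.4% in each replicate. They ran from 12550844 to 12581354 (30.5 kb), from 18516538 to 18545548 (29.0 kb), from 8765832 to 8794712 (28.9 kb) and from 2539238 to 2564012 (24.8 kb).

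Splitting followed width over all members. Of the 798 members, 664 (83.2%, Wilson 95% interval 80.5 to 85.6%, which treats clusters as independent) were a single region in each replicate. This share was 99.7% under 3 kb, 78.0% from 3 to 10 kb and 42.0% at 10 kb or more. The narrowest X region of each replicate list was 1.306 kb wide, so a member under 3 kb could hardly hold 2 regions. The share under 3 kb was thus largely set in advance, and wider members had more room for breaks. Replicate 1 split 100 members and replicate 2 split 82, and 48 were split by both. The breaks were short, with a median of 304 bp in replicate 1 and 448 bp in replicate 2, and the longest were 2674 and 4609 bp. The members in the most pieces were the 53.2 and 30.9 kb domains, with up to 5 regions. The domains X:18516538-18545548, X:3581328-3599486 and X:6975252-6993324 followed with up to 4.

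For 647 members that matched a single region of each replicate, which in turn matched no other member, the replicates agreed closely in place. This choice itself favours agreement. It left out the 134 members split in at least 1 replicate, and of the 88 members of at least 10 kb only 37 were unsplit. The values therefore say nothing about the members left out. Starts differed by a median of 74 bp and ends by 67 bp, and 232 pairs (35.9%) had both edges within 100 bp. In 54 pairs (8.35%) an edge differed by more than 1 kb. Across these members Spearman's rho between the replicates was 0.92 for the score and 0.88 for the width. These are correlations across clusters of the same pair of libraries, and clusters are not independent replicates.

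Along X, clusters were packed in some stretches and absent from others. The median gap between neighbouring members was 6.35 kb, with quartiles of 1.75 and 21.8 kb. In the replicates the median gap was 5.35 and 5.73 kb, a mean of 5.54 ± 0.27 kb (SD, n = 2). Of the 797 gaps, 208 (26.1%) were under 2 kb, and 99 (12.4%) were at least 50 kb. These 99 gaps together made up 11.4 Mb, or 50.8% of the X sequence. The replicates gave 100 such gaps each over the matching regions, 51.1% and 51.2% of X. About equal parts of the X were thus long stretches without members and stretches where members stood within 50 kb of each other.

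**Figure D4:**
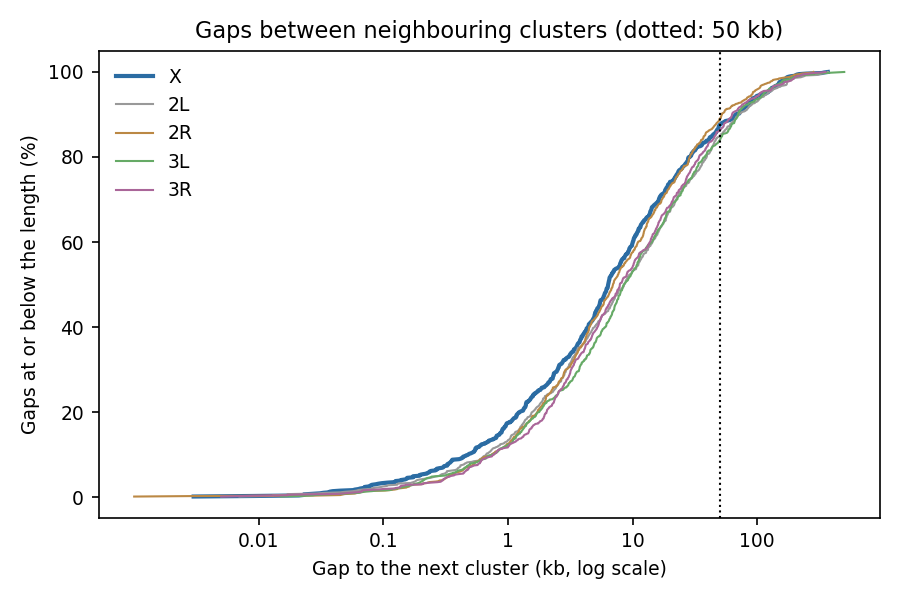
Share of gaps between neighbouring clusters at or below each length (kb, log scale) on X (thick line) and on the 4 large autosome arms, for clusters found in both replicates. The X curve is the highest at short lengths, with 17.4% of gaps under 1 kb, and meets the others near 50 kb (dotted).

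The longest gap, 368 kb from 20529619 to 20898061, held no region of any of the 3 lists. It ended at the twelfth strongest site of X, which begins at 20898062 and scored 3.01. The gap of 329 kb from 14144841 to 14473681 and the gap of 186 kb from 7315655 to 7501479 were likewise without any listed region. Over all 99 long gaps, 60 (60.6%) held no region of any list, and these came to 6.62 Mb. The others among the 10 longest held at least 1 region that was not shared. They ran from 21502237 to 21845659 (343 kb), from 19802599 to 20052043 (249 kb), from 12139653 to 12355875 (216 kb), from 9768231 to 9975363 (207 kb), from 13892587 to 14096911 (204 kb), from 4600031 to 4802827 (203 kb) and from 12805239 to 12983053 (178 kb). A stretch without a region says that the caller listed none there, and reads that could not be placed may be part of it, which was not tested. The first member began 139 kb from the tip of the X sequence, and the last ended 6.25 kb before its end.

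The gap from 12139653 to 12355875 was the exception among the long gaps. It held 21 regions of the combined list that missed the rule, more than any other gap. They lay between 12140402 and 12223218, covered 46.8% of these 82.8 kb and scored from 0.38 to 0.63. Replicate 1 overlapped 9 of them, replicate 2 overlapped 2 others, and 10 overlapped neither. The remaining 133 kb of this gap held none. It was thus a stretch of many low-scoring regions that the replicates did not share.

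At the other extreme, members stood in strings. When members less than 2 kb apart were counted as a string, 442 stood alone, 103 strings held 2 members and 45 held 3 or more, and 356 members (44.6%) were in a string. Some close members matched the same region of a replicate. Those from 369012 to 374660 and from 374698 to 377772, 0.037 kb apart, both matched a 7.97 kb region of replicate 1. The string with the most members ran from 3027812 to 3060434 and held 5, which filled 93.4% of its 32.6 kb. Its first member, from 3027812 to 3036956, scored 1.80, the second scored 1.00, and the remaining 3 scored between 0.51 and 0.63. In the replicates the first member reached 2.39 and 2.58, and the other 4 reached at most 1.26 in replicate 1 and 1.00 in replicate 2. The string was therefore high at its tip-side end and low over the rest in each list. Another string, from 20898062 to 20917476, began with the strong narrow site at its tip-side end and held 4 members with scores of 3.01, 0.81, 1.496 and 2.17.

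Isolated clusters were narrower than crowded ones, at about the same score. The 200 members with the nearest neighbours, at 0.73 kb or less, had a median score of 1.30 and were 3.94 kb wide in the median. The 200 with the farthest, at 7.0 kb or more, had a median score of 1.32 and were 2.84 kb wide in the median. A neighbour within 2 kb was found for 51.1% of the members of at least 10 kb and for 36.8% of those under 3 kb. Neighbouring members did not resemble each other in score. Spearman's rho between the scores of neighbours was -0.005 over 797 pairs and 0.0053 over the 208 pairs less than 2 kb apart, given as a description. The pairs include members that matched the same region of a replicate.

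Members occurred in every 1 Mb window of X, in unequal numbers. The 22 full windows held between 17 and 51 members, with a median of 35, and between 8.62 and 25.8% of their sequence was covered. The richest were the 6 to 7 Mb and the 15 to 16 Mb windows, with 51 members each, and the window from 13 to 14 Mb, with 50. The poorest were those from 14 to 15 Mb with 17, from 20 to 21 Mb with 20 and from 4 to 5 Mb with 23. One of the richest windows, at 15 to 16 Mb, thus bordered the poorest, at 14 to 15 Mb. The richer of this pair held 59 matching regions in replicate 1 and 58 in replicate 2, and the poorer held 19 and 17. The poorest window nevertheless held one of the 20 strongest sites, the one from 14962822 to 14971394, and 3 domains of at least 10 kb.

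Broad domains and strong sites were spread along the chromosome. Of the 22 full windows, 21 held at least 1 member of 10 kb or more, and the window from 16 to 17 Mb held the most, with 8. The exception was the window from 21 to 22 Mb, nearest the centromere, which held 27 members and no such domain. The 20 strongest sites lay in 13 windows, with 3 sites each in the 5 to 6 Mb and 13 to 14 Mb windows. The median width of the members was between 2.71 and 4.80 kb in these windows, 3.63 ± 0.52 kb (SD over 22 windows). The number of members and the covered share rose together over the 22 windows (Spearman's rho 0.90), which the shared clusters partly fix.

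**Figure D5:**
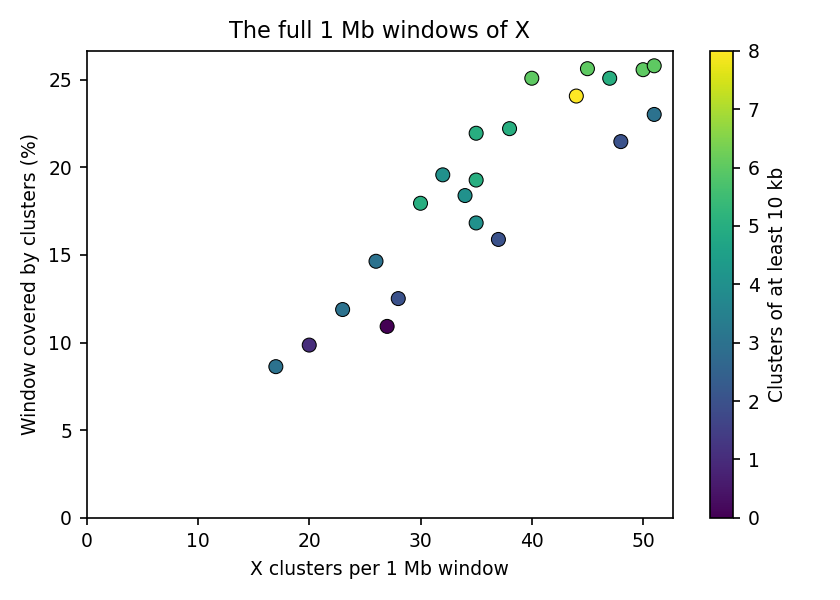
Covered share (%) against the number of X clusters in each of the 22 full 1 Mb windows of X, with the number of clusters of at least 10 kb in colour. Windows range from 17 clusters and 8.62% covered to 51 clusters and 25.8% covered.

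Beside the autosomes, X clusters were wider and closer together, and the single highest score was lower. The median width was 3.54 kb on X and between 3.00 and 3.10 kb on arms 2L, 2R, 3L and 3R, taken by the same rule. In replicate 1 the medians were 2.80 kb on X and 2.57 to 2.65 kb on the arms. In replicate 2 they were 2.78 kb on X and 2.62 to 2.76 kb on the arms, where 3R came closest to X. Clusters of at least 10 kb made up 11.0% on X and 5.99 to 8.06% on the arms, 6.58% against 3.58 to 5.20% in replicate 1, and 5.70% against 3.69 to 5.54% in replicate 2. X was the highest of the 5 in each list for both measures, but not for clusters of at least 20 kb. These made up 2.01% on X and 2.44% on 3R in the combined list, 1.32% and 1.25% in replicate 1, and 1.23% and 1.65% in replicate 2.

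The difference in width was not even over the scores. Among the highest scoring 25% of clusters on X and the arms together, the median width was 5.27 kb on X and 3.57 kb on the arms, whereas in the second lowest 25% it was 3.10 kb on X and 3.28 kb on the arms. X clusters also had the higher median score, 1.30 on X and 1.19 to 1.24 on the arms. On X, wider clusters tended to have higher scores. On the arms, the median width was 4.11 kb in the second highest 25% of scores, above the 3.57 kb in the highest. The part of score in the difference in width was given only by score class and was not tested further. The median gap was 6.35 kb on X and 6.96 to 8.60 kb on the arms, and gaps under 1 kb made up 17.4% on X and 11.8 to 13.4% on the arms. A single region in each replicate was found for 83.2% of the clusters on X and for 87.7 to 88.3% on the arms. On X this share fell with width, and X clusters were wider. The part of width in this difference was not tested. The highest score was 3.40 on X and between 4.08 and 4.48 on the arms, 3.59 against 4.22 to 4.56 in replicate 1 and 3.65 against 4.12 to 4.44 in replicate 2. These comparisons were chosen after the values had been seen, clusters of a sequence are not replicates, and none of the differences was tested.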

How the data were processed

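Regions were deposited as GFF3 lists for each of 2 ChIP replicates and for the series as a combined list, on FlyBase release 5 per the file headers. Samples were grouped by their titles. Per the labels' protocols, fixation was in 1.8% formaldehyde (10 min) and immunoprecipitation took 15 h. The submitters' processing notes name Bowtie 0.12.7 for alignment. The sources used here do not give the region caller, its threshold, the read filters, the use of input or the making of the combined list. The score of each region is used as the authors deposited it, and starts and ends are as deposited, with all combined-list coordinates being even numbers. Widths were taken as end minus start plus 1 and gaps as the bases between neighbouring clusters. Clusters were named by position: the 20 highest scoring, the 10 widest, the 10 longest gaps, the 3 richest and poorest windows, the string with the most members, the 5 most split and those next to the limits of the rule. Other positions were chosen for naming with their values in view. Members and lists were chosen with earlier results of these data known. No per-sample counts were used, and the precision set by depth is unknown. The software was scipy 1.17.1, matplotlib 3.10.9, pandas 2.3.3, numpy 2.4.6 and Python 3.11.15, and overlap, gap and merging steps were tested on simulated lists. Alternatives were a stricter score or overlap limit, merging within 1 kb, all X regions of the combined list, each replicate alone or left out, a width minimum, and other limits for broad clusters, long gaps, top sites and windows.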

Additional observations from a re-analysis of the deposited data

How the results depend on the processing

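Of 104 alternative values for 12 results, 53 were unchanged, within the SD of the 2 replicates or, for numbers, within 1.5 times the original. Of the others, 50 moved further and 1 reversed. The 1.5 kb minimum removed nothing, so its values, which are counted among the 53, say nothing about stability. Nor does the share of the 20 highest for each replicate alone, 60%, which counts the same overlap of the lists again. The 60% with the upper 50% by score and with all X regions was fixed as well. Both settings keep the same 20 members on top, as the lowest of them scored 2.80 and the highest unshared region 2.34. With the upper 50% of the X list by score there were 528 clusters, a median width of 4.36 kb, a median gap of 11.5 kb, 39.7% of bases in clusters of at least 10 kb, 80.7% that were a single region in each replicate and a rho of width and score of 0.18. Requiring 50% of a cluster to be covered in each replicate gave 3.45 kb, 84.1% and a rho of 0.51. Merging within 1 kb gave 4.05 kb, a gap of 9.55 kb, 47.9% of bases and 69.8%. All X regions of the combined list gave 2.71 kb, 3.81 kb, 30.6%, 62.4% and a rho of 0.69. Replicate 1 alone gave 2.80 kb, 5.35 kb, 24.9%, 91.2% and a rho of 0.64, and replicate 2 alone gave 2.78 kb, 5.73 kb, 22.0%, 91.4% and a rho of 0.63, with 51 broad clusters. Leaving out each replicate gave 837 to 895 clusters, median widths of 3.24 to 3.40 kb, gaps of 5.31 to 6.32 kb, 88.5 to 90.2%, 80% of the 20 highest shared and a rho of 0.52 to 0.58. It gave 98 to 101 long gaps and 32.5 to 33.4% of bases in broad clusters. With a replicate left out, the shares of single regions and of the 20 highest count the remaining replicate only. For a replicate alone, 91.2% and 91.4% are shares of its matching regions that overlapped 1 member and 1 region of the other replicate. These shares are therefore not measured as the main values are, and their rise does not show closer replicates. Other limits gave 16 clusters and 10.7% of bases at 20 kb or more, 152 gaps of at least 30 kb and 72% of the 50 highest shared. The X median width exceeded that of the arms by 0.50 kb, by 0.18 kb with replicate 1 and by 0.088 kb with replicate 2. With clusters split into 4 equal classes of score, it exceeded it by 1.70, 0.24 and 0.13 kb in the highest, second highest and lowest class, but the difference was -0.18 kb in the second lowest. For clusters of at least 10 kb the difference was 3.96 percentage points, 2.18 with replicate 1, 1.21 with replicate 2 and 0.59 for those of at least 20 kb. The causes of these shifts were not tested, beyond the fewer or merged clusters that a setting itself brings. No paired analysis was possible because input had no list and no test between groups was made.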

Other observations

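The 266 enriched X regions of the combined list that were not found in both replicates were narrow and low. Of these, 130 overlapped neither replicate, 97 replicate 1 only and 39 replicate 2 only, with median widths of 1.33, 1.83 and 1.84 kb and median scores of 0.46, 0.44 and 0.44. Of the 130, 61 were narrower than any X region of replicate 1. They were spread along the chromosome, with 3 to 35 per full 1 Mb window and a median of 11.5, and the window with 35, from 12 to 13 Mb, holds the stretch of 21 low-scoring regions described above. Only 3 of the 266 scored above the median of the shared clusters. The highest, a 1.00 kb region from 21794928 to 21795928, scored 2.34 and overlapped neither replicate. The second, from 21413564 to 21415582, was 2.02 kb wide, scored 1.84 and overlapped replicate 2 only. The third, from 13357738 to 13358846, scored 1.46 and overlapped neither.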
